A study of Homo sapiens with 56 samples.

Results

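The assembly factors of the large (60S) ribosomal subunit are proteins that join the growing particle in the nucleolus and leave it before translation begins. A list of 51 human genes for such factors was followed, and all 51 of 51 qualified: each was present in both count tables and had a mean of 5 CPM (counts scaled for library size, the unit of all levels here) or more in at least 1 of the cell lines. None lay near that limit, the lowest being NOL9 at 37.1 CPM and ZNF622 at 41.4 CPM in the line where each was higher. The highest was BOP1 at 508 CPM in KG-1. The tables shared 59081 symbols, and 20495 genes in Mv4;11 and 18618 in KG-1 had counts high enough to be tested, with all 51 members among both sets. In the GENCODE annotation of GRCh38 the genes described most closely are protein-coding and lie on several chromosomes, among them NOP16 on chromosome 5 (176383938 to 176388975, minus strand), MRTO4 on chromosome 1 (19251539 to 19260128, plus strand), GNL3 on chromosome 3 (52681156 to 52694492, plus strand) and PPAN on chromosome 19 (10106289 to 10111634, plus strand). Counts are per whole gene.

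Large subunits start as a precursor RNA made by RNA polymerase I, which is folded, cut and chemically modified while ribosomal proteins are added. Early factors bind in the nucleolus, GTPases and ATP-driven helicases and AAA ATPases remodel the particle, a nuclease complex removes an internal spacer (ITS2), and an adaptor carries the particle through the nuclear pore, after which late factors are stripped off in the cytoplasm. Genes of this pathway are highly expressed in dividing cells, and many are known targets of the transcription factor MYC.

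The cells, Mv4;11 and KG-1, are long-established human lines derived from acute myeloid leukaemia. Each line received PMR-116 at 1 µM, CX-5461 at 1 µM or the vehicle, a buffer of 50 mM citric acid and 50 mM NaH2PO4, for 3 h or 12 h. Both compounds are known as inhibitors of RNA polymerase I. Each compound had vehicle libraries of its own at each time, which gave 16 groups and 56 libraries: 3 per group in Mv4;11 and 4 per group in KG-1. Nothing in the labels says that replicates came from separate cultures, so p-values measure the spread between these libraries, which may be technical. All Mv4;11 libraries were labelled batch 1 and all KG-1 libraries batch 2, and each line had its own count table, so line, batch and table cannot be told apart.

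Library totals were 28751758 to 41542156 estimated counts in Mv4;11 and 31010072 to 72707757 in KG-1. The haematopoietic markers PTPRC, SPI1 and CD33 had medians of 87.98, 228 and 106 CPM in Mv4;11 and 440.2, 138 and 93.99 CPM in KG-1. CD34 had a median of 0.065 CPM in Mv4;11 against 2126 CPM in KG-1, and FLT3 one of 383 CPM against 4.90 CPM. HBB was at 0 in every library, while the T cell gene CD3D reached 58.5 to 74.8 CPM in KG-1. A single Mv4;11 library, replicate 3 of the 12 h group treated with PMR-116's own vehicle, was unlike the rest in abundant noncoding RNA. Its RN7SL2 level was 438 CPM, whereas the remaining 5 Mv4;11 vehicle libraries at 12 h had 9.18 to 15.8 CPM, so 12 h results are also given with it left out.

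In Mv4;11 more members were called lower than higher under both compounds, and more were lower at 12 h than at 3 h. With PMR-116, 30 of 51 members were lower and 1 higher than with vehicle at 3 h, and 47 were lower and 0 higher at 12 h. With CX-5461, 22 were lower at 3 h and 42 at 12 h, with 0 higher at either time. Calls are edgeR quasi-likelihood tests at an adjusted p under 0.05 over all genes. The share of all tested genes called lower was 13.1% with PMR-116 and 6.61% with CX-5461 at 3 h, and 22.5% and 16.5% at 12 h. The share called higher was 11.0% and 5.05% at 3 h, and 20.7% and 14.8% at 12 h. The members' median log2 fold change was -0.35 with PMR-116 and -0.20 with CX-5461 at 3 h, and -0.74 and -0.40 at 12 h, beside medians over all genes of 0.00, -0.00, 0.01 and 0.04 in the same order. DESeq2 called 0 members higher in 3 of these 4 comparisons too, and 1 with PMR-116 at 3 h.

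The summed level of the 51 members was 4641 to 4969 CPM in the PMR-116 libraries of Mv4;11 at 3 h, against 5976 to 6154 CPM in their vehicle. The 12 h sum was 3213 to 3579 CPM with PMR-116, against 5143 to 5713 CPM with vehicle. With CX-5461 the sum was 5053 to 5431 CPM at 3 h, against 5888 to 6407 CPM with vehicle, and at 12 h it was 4058 to 4377 CPM, against 5317 to 5579 CPM with vehicle. Treated and vehicle libraries did not overlap in any of these 4 comparisons. CPM are relative to the other messenger RNA of a library. A lower sum therefore need not mean less RNA of these genes per cell, and CPM give neither cell number nor total RNA per cell.

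**Figure D1:**
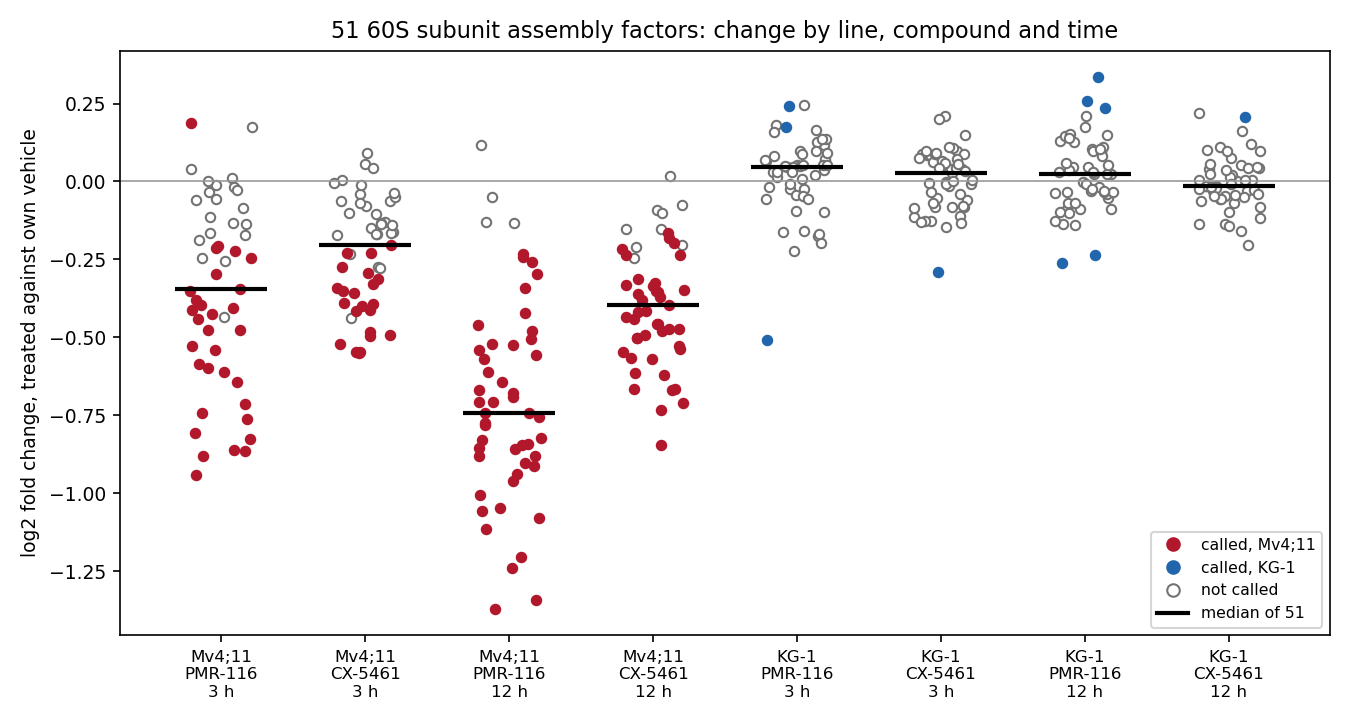
Each point is 1 of the 51 members, and the vertical axis gives its log2 fold change against the vehicle of the same compound, line and time. Filled points passed the test, open points did not, and bars mark medians: in Mv4;11 46 to 50 of the 51 points lie below 0 and they reach -1.37 with PMR-116 at 12 h, while in KG-1 they centre on 0.

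With that RN7SL2-rich vehicle library left out, 48 members were lower with PMR-116 at 12 h in Mv4;11 and their median was -0.78. Scaling to library totals in place of TMM factors moved the median of all genes by 0.17 in that comparison. Members were then still lower relative to it, with a median of -0.57 beside 0.18 over all genes, and 42 were called lower and 1 higher (NVL). The CX-5461 count at 3 h was 14 without replicate 2 of its vehicle and 13 without replicate 3 of CX-5461.

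In the PeBoW complex PES1, BOP1 and WDR12 act together in the maturation of the large subunit RNAs. The RNA levels of all 3 genes fell at 12 h, and these data hold no protein levels. PES1 had 107, 87.6 and 96.0 CPM in the 3 PMR-116 libraries of Mv4;11 at 12 h, against 196, 187 and 163 CPM in vehicle libraries. BOP1 had 144, 132 and 145 CPM with PMR-116 at 12 h, against 297, 295 and 275 CPM with vehicle. WDR12 had 48.6, 42.5 and 37.7 CPM with PMR-116 at 12 h, against 80.3, 81.9 and 74.6 CPM with vehicle. All 3 genes were below vehicle in every treated library, by log2 fold changes of -0.91 ± 0.07, -1.05 ± 0.07 and -0.88 ± 0.10 (SE, adjusted p = 4.45e-10, 2.24e-11 and 1.38e-07).

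At 3 h the same genes had moved less. PMR-116 gave 172, 172 and 153 CPM of PES1, against 205, 205 and 200 CPM with vehicle (log2 fold change -0.30 ± 0.07, adjusted p = 0.00414). BOP1 had 262, 276 and 277 CPM with PMR-116 at 3 h, against 290, 339 and 322 CPM with vehicle (-0.22 ± 0.07, adjusted p = 0.0222). That BOP1 call was made in 9 of 13 alternative settings, with an adjusted p of 0.00794 to 0.12 over them. CX-5461 lowered all 3 members at 12 h, to log2 fold changes of -0.44, -0.50 and -0.40, and at 3 h its call covered BOP1 (-0.23 ± 0.07, adjusted p = 0.0335), which held in 7 of 13 settings.

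Among the 19 early nucleolar factors, 14 were lower with PMR-116 and 12 with CX-5461 at 3 h, and 18 and 17 at 12 h. NOP16, a nucleolar protein of early large subunit particles, changed most with PMR-116 at 3 h. Its level was 55.98, 48.97 and 40.77 CPM with PMR-116 at 3 h, against 92.5, 96.0 and 91.3 CPM with vehicle (log2 fold change -0.94 ± 0.09, adjusted p = 5.61e-08). By 12 h NOP16 was at 32.5, 27.7 and 32.6 CPM with PMR-116, against 86.5, 77.4 and 71.4 CPM with vehicle (-1.34 ± 0.09, adjusted p = 2.31e-11). CX-5461 gave 67.9, 68.3 and 63.9 CPM at 3 h, against 92.6, 97.4 and 89.4 CPM with vehicle (-0.48 ± 0.09, adjusted p = 0.000586). At 12 h CX-5461 gave 50.0, 45.2 and 49.2 CPM of NOP16, against 73.6, 81.8 and 80.7 CPM with vehicle (-0.71 ± 0.09, adjusted p = 1.27e-06). No treated library reached any vehicle library in these comparisons.

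PPAN, whose yeast counterpart is needed for processing of the large subunit precursor, had 77.6, 76.3 and 72.9 CPM with PMR-116 at 3 h, against 134, 145 and 137 CPM with vehicle (log2 fold change -0.88 ± 0.06, adjusted p = 1.98e-10). With CX-5461 at 3 h it had 92.8, 96.8 and 94.0 CPM, against 136, 145 and 134 CPM with vehicle (-0.55 ± 0.06, adjusted p = 4.28e-07). At 12 h PPAN was lower, at -1.06 with PMR-116 and -0.55 with CX-5461. The separate read-through symbol PPAN-P2RY11 had a median of 15.7 CPM in Mv4;11 beside 105 CPM for PPAN, and how the authors' counting split reads between them is not given, so PPAN levels are uncertain to that extent.

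Other early factors with large falls were RRP1 (-1.20 with PMR-116 and -0.67 with CX-5461 at 12 h), BRIX1 (-1.11 and -0.85) and RBM28 (-1.01 and -0.54), proteins of early nucleolar particles. MAK16 was among the 3 largest falls with CX-5461 at 3 h, at -0.55. EBNA1BP2, a nucleolar protein known in yeast as Ebp2, was at -0.03 with PMR-116 and 0.06 with CX-5461 at 3 h and fell at 12 h, to -0.94 with PMR-116 and -0.67 with CX-5461. NSA2, whose yeast counterpart acts late in the nucleus, changed least of the early factors with PMR-116 at 12 h. It stood at -0.13 ± 0.07 with PMR-116 (adjusted p = 0.0964) and -0.16 with CX-5461 at 12 h, and the CX-5461 value passed the test (adjusted p = 0.0465), a call that held in 5 of 13 settings.

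RPF2 and RRS1, which together bring the 5S ribonucleoprotein to the particle, were both lower at 12 h. RPF2 had 39.4, 36.2 and 34.1 CPM with PMR-116 at 12 h, against 74.6, 62.4 and 59.9 CPM with vehicle (log2 fold change -0.84 ± 0.10, adjusted p = 2.94e-07). RRS1 had 55.14, 47.96 and 58.90 CPM, against 89.2, 77.3 and 80.8 CPM with vehicle (-0.61 ± 0.10, adjusted p = 2.72e-05). Both genes were below vehicle in every treated library. At 3 h with PMR-116 they were lower, at -0.40 and -0.54. With CX-5461 RPF2 was at -0.27 at 3 h (adjusted p = 0.0818) and -0.57 at 12 h, and RRS1 was lower, at -0.31 at 3 h and -0.33 at 12 h, the 3 h call holding in 8 of 13 settings.

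NOP2, which methylates a cytosine of the large subunit RNA, had 110, 119 and 94.7 CPM with PMR-116 at 3 h, against 166, 164 and 156 CPM with vehicle (log2 fold change -0.58 ± 0.08, adjusted p = 1.13e-05). Its 12 h levels were 79.8, 67.3 and 72.5 CPM with PMR-116, against 146, 136 and 122 CPM with vehicle (-0.88 ± 0.08, adjusted p = 5.15e-09). These groups did not overlap at either time. CX-5461 lowered NOP2, to -0.34 at 3 h and -0.46 at 12 h. FTSJ3, a ribose methyltransferase, was called lower with PMR-116 at 12 h (-0.34), and its values in the other 3 comparisons were -0.17 with PMR-116 and -0.17 with CX-5461 at 3 h, and -0.15 with CX-5461 at 12 h, with no call.

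Of the 8 DEAD-box helicases, which unwind RNA in the particle, 4 were lower with PMR-116 and 2 with CX-5461 at 3 h, and 8 and 7 at 12 h. DDX18 and DDX55 changed most at 12 h, with -0.90 and -0.85 under PMR-116 and -0.57 and -0.42 under CX-5461. DDX27 changed least, with -0.23 with PMR-116 at 12 h, called in 11 of 13 settings.

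Among the 4 GTPases, GNL3 (nucleostemin) and its relative GNL3L fell at both times, and GNL2 and GTPBP4 at 12 h. GNL3 had 160, 157 and 124 CPM with PMR-116 at 3 h, against 295, 254 and 253 CPM with vehicle (log2 fold change -0.86 ± 0.10, adjusted p = 4.68e-07). At 12 h it had 111, 89.7 and 91.1 CPM with PMR-116, against 249.7, 228 and 212 CPM with vehicle (-1.24 ± 0.10, adjusted p = 2e-10). With CX-5461 it had 203, 192 and 175 CPM at 3 h, against 282, 293 and 261 CPM with vehicle (-0.55 ± 0.09, adjusted p = 0.000273). The treated libraries lay below the vehicle libraries each time. At 12 h with PMR-116 GNL3L was lower, at -0.96, GTPBP4 at -0.50 and GNL2 at -0.26.

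**Figure D2:**
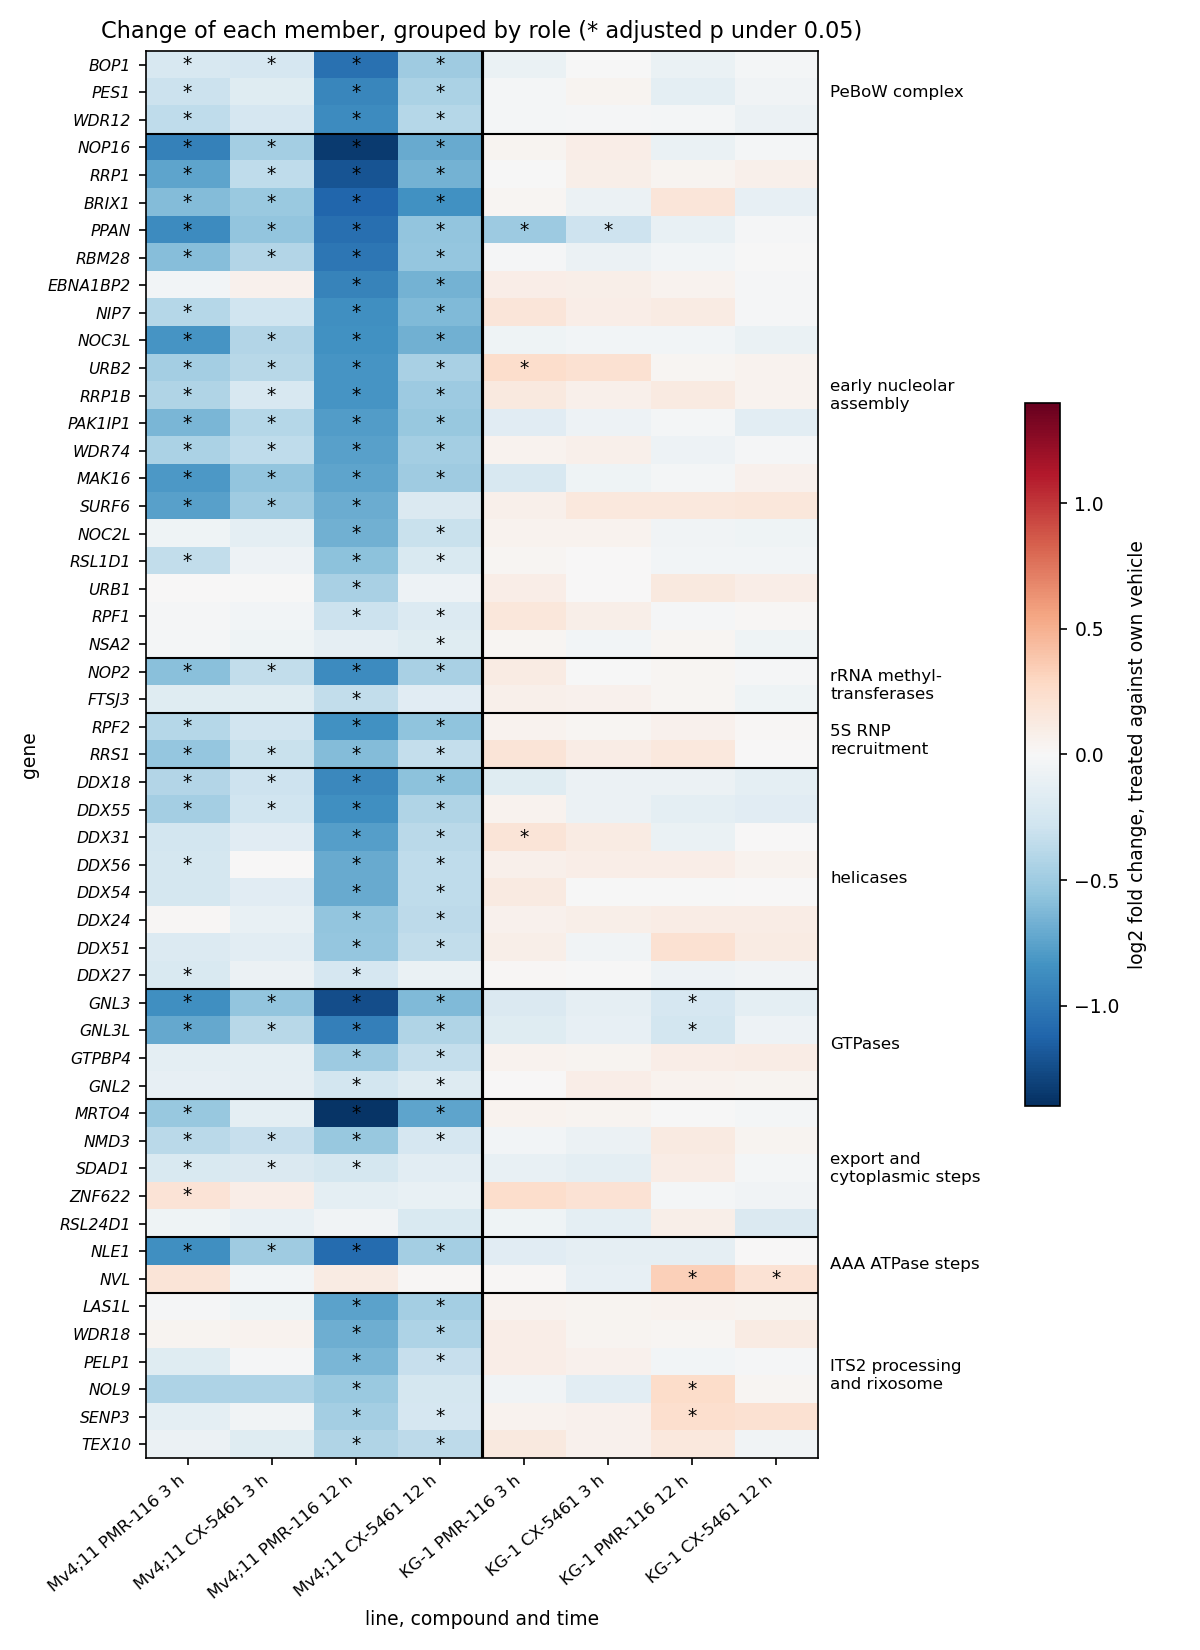
Rows are the 51 members grouped by role, columns are the 8 comparisons with Mv4;11 on the left and KG-1 on the right, and colour gives the log2 fold change against the matching vehicle, with stars for calls. In the Mv4;11 columns at 12 h 47 members with PMR-116 and 42 with CX-5461 are called lower, and in the KG-1 columns no more than 5 members are called in any comparison. These calls are from the fit without replicate number as a block. With the block 5 members were lower and 6 higher in KG-1 with PMR-116 at 3 h.

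The 6 members that cut and process ITS2 or belong to the rixosome (LAS1L, NOL9, PELP1, TEX10, WDR18 and SENP3) did not pass the test at 3 h, where 0 of 6 were called with either compound by edgeR, with 3 at an unadjusted p under 0.05 with PMR-116 and 2 with CX-5461. NOL9 was called lower with both compounds at 3 h with no filter and with only the 2 groups. With pooled vehicles NOL9 and PELP1 were lower with PMR-116, and DESeq2 called PELP1 lower with PMR-116 and TEX10 with CX-5461. At 12 h 6 of 6 were lower with PMR-116 and 5 of 6 with CX-5461. LAS1L, the endonuclease that cleaves ITS2, had 114, 134 and 126 CPM with PMR-116 at 3 h, against 119, 135 and 125 CPM with vehicle. Its groups overlapped and the log2 fold change was -0.02 ± 0.07 (adjusted p = 0.888). At 12 h it had 73.6, 69.8 and 72.7 CPM with PMR-116, against 128, 123 and 111 CPM with vehicle (-0.74 ± 0.07, adjusted p = 4.55e-09). With CX-5461 at 12 h it had 85.7, 82.2 and 80.3 CPM, against 115, 121 and 111 CPM with vehicle (-0.48 ± 0.07, adjusted p = 8.08e-06). NOL9, the kinase that acts with LAS1L, was at -0.43 and -0.44 at 3 h without a call, and it had the lowest level of the members at 25.1 CPM on average in Mv4;11.

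The AAA ATPase steps held opposite cases. NLE1, a WD-repeat protein on which the ATPase Midasin pulls, fell to log2 fold changes of -0.86 at 3 h and -1.08 at 12 h with PMR-116, and of -0.49 and -0.47 with CX-5461. NVL, an AAA ATPase that releases factors from the particle, had 47.2, 47.7 and 45.4 CPM with PMR-116 at 12 h, against 43.3, 43.3 and 42.7 CPM with vehicle. The treated libraries lay above the vehicle libraries, but the difference did not pass the test (log2 fold change 0.12 ± 0.08, adjusted p = 0.259).

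In the group for export and cytoplasmic steps, MRTO4 showed the lowest value of any member. This protein holds the place of the stalk protein P0 on the particle, and its level was 47.70, 39.29 and 42.02 CPM with PMR-116 at 12 h, against 122, 111 and 101 CPM with vehicle (log2 fold change -1.37 ± 0.08, adjusted p = 1.82e-12). With CX-5461 at 12 h it was 69.7, 61.8 and 64.6 CPM, against 108, 111 and 107 CPM with vehicle (-0.73 ± 0.08, adjusted p = 1.3e-07). At 3 h it had fallen with PMR-116, to -0.53, and was at -0.13 with CX-5461 (adjusted p = 0.313).

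NMD3, the adaptor that links the particle to the export receptor, had 54.0, 56.1 and 52.2 CPM with PMR-116 at 12 h, against 81.8, 85.3 and 66.5 CPM with vehicle (log2 fold change -0.53 ± 0.09, adjusted p = 2.57e-05). CX-5461 lowered it to -0.24 at 12 h, a call that held in 7 of 13 settings. ZNF622, whose yeast counterpart Rei1 acts in the cytoplasm, was the 1 member called higher: it had 47.2, 46.7 and 47.9 CPM with PMR-116 at 3 h, against 40.9, 41.9 and 41.9 CPM with vehicle (0.19 ± 0.06, adjusted p = 0.0268). That call held in 6 of 13 settings, with an adjusted p of 0.00276 to 0.0909. Without any one of 5 of the 6 libraries 0 members were called higher, and without replicate 3 of the vehicle 2 were. At 12 h ZNF622 was at -0.13 with PMR-116 and -0.10 with CX-5461, neither called as reported. The PMR-116 value was called lower in 3 of 13 settings, among them DESeq2 and pooled vehicles. RSL24D1, a late-leaving factor in yeast, was at -0.05 with PMR-116 and -0.21 with CX-5461 at 12 h, also uncalled as reported.

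The calls nearest to 0 in Mv4;11 came from several roles. With PMR-116 at 3 h ZNF622 was higher (0.19), called in 6 of 13 settings, and the lower calls nearest to 0 were DDX27 (-0.21) and SDAD1 (-0.21), an export factor in yeast, called in 12 and 7 of 13 settings. With CX-5461 at 3 h SDAD1 (-0.20), RRP1B (-0.23) and BOP1 were the smallest, the first called in 4 of 13 settings and RRP1B in 8. With PMR-116 at 12 h SDAD1 (-0.24) and GNL2 (-0.26) were, like DDX27, called in 11 of 13 settings. With CX-5461 at 12 h NSA2 (-0.16) was called in 5 of 13 settings, and GNL2 (-0.18) and RPF1 (-0.20) in 8 and 9.

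Across the 4 Mv4;11 comparisons, 20 of 51 members were lower in all 4, 9 in 3, 15 in 2, 4 in 1 and 3 in 0, the last being NVL, RSL24D1 and ZNF622. This tally was not made over all genes. No more than 6.61% of them, the share lower with CX-5461 at 3 h, can be lower in all 4. Over the 51 members, the log2 fold changes of PMR-116 and CX-5461 in Mv4;11 had a Pearson correlation of 0.91 at 3 h and 0.89 at 12 h (Spearman 0.90 and 0.90). In KG-1 it was 0.81 at 3 h and 0.59 at 12 h (Spearman 0.75 and 0.55). Each correlation used separate treated and vehicle libraries of 1 line and batch, and genes are not independent replicates.

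**Figure D3:**
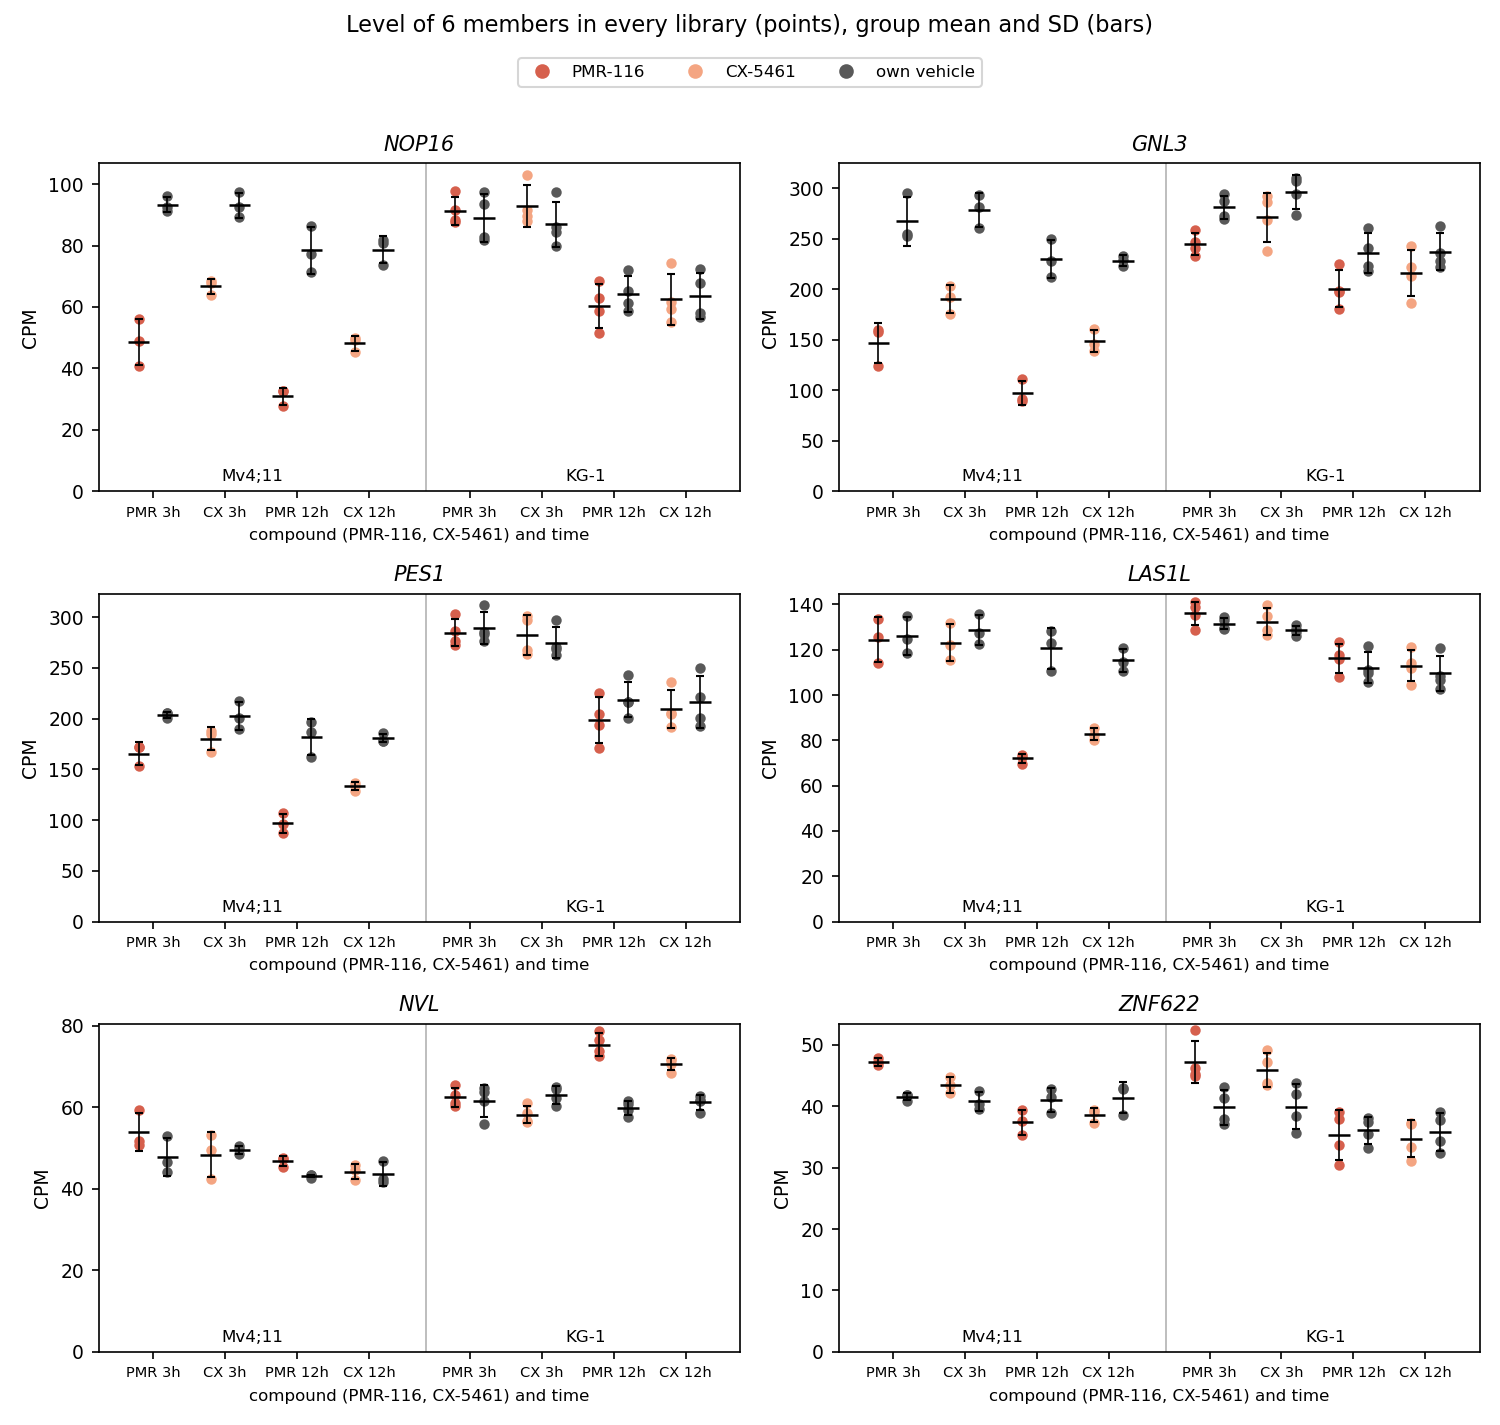
Points are single libraries, and bars give group means and SD in CPM, for 6 members with treated groups left of their own vehicle. In Mv4;11 NOP16 and GNL3 lie below vehicle at both times, LAS1L at 12 h, while in KG-1 NVL lies above vehicle at 12 h.

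To ask when the members changed, the effects at 12 h were compared with those at 3 h. With PMR-116 in Mv4;11, 32 of 51 members had a lower effect at 12 h and 0 a higher one, beside 15.4% and 12.2% of all genes. With CX-5461, 8 members were lower and 0 higher, beside 9.15% and 7.59% of all genes, so the share of members lower was 15.7%. DESeq2 gave 34 and 14 lower and 0 higher, and with CX-5461 1 member, SURF6, was called higher with library totals and with no filter on low counts. EBNA1BP2 had the largest such difference with both compounds, -0.90 ± 0.10 with PMR-116 (adjusted p = 4.88e-07) and -0.72 ± 0.10 with CX-5461 (adjusted p = 2.95e-05). MRTO4 followed with -0.84 and -0.60, BOP1 came next with PMR-116 at -0.82 ± 0.10, and WDR18 with CX-5461 at -0.48 ± 0.11. LAS1L differed by -0.73 and -0.42. The smallest differences called were those of RPF1 (-0.29), WDR74 (-0.32) and ZNF622 (-0.32) with PMR-116, and of DDX24 (-0.27), RRP1B (-0.27) and PELP1 (-0.31) with CX-5461. Leaving out the RN7SL2-rich vehicle library, 35 members were lower with PMR-116.

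Some members had reached most of their change by 3 h. PPAN, NLE1, NOC3L, MAK16, SURF6 and PAK1IP1 were lower at both times with PMR-116, and none of these 6, named after their values were seen, had a called difference between the times. With library totals 20 members were lower at 12 h than at 3 h with PMR-116, and the median of all genes moved by 0.13. With CX-5461 the count was 13 without replicate 2 of the 3 h vehicle, 15 without replicate 1 of CX-5461 at 12 h and 5 without replicate 2 of the 12 h vehicle.

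**Figure D4:**
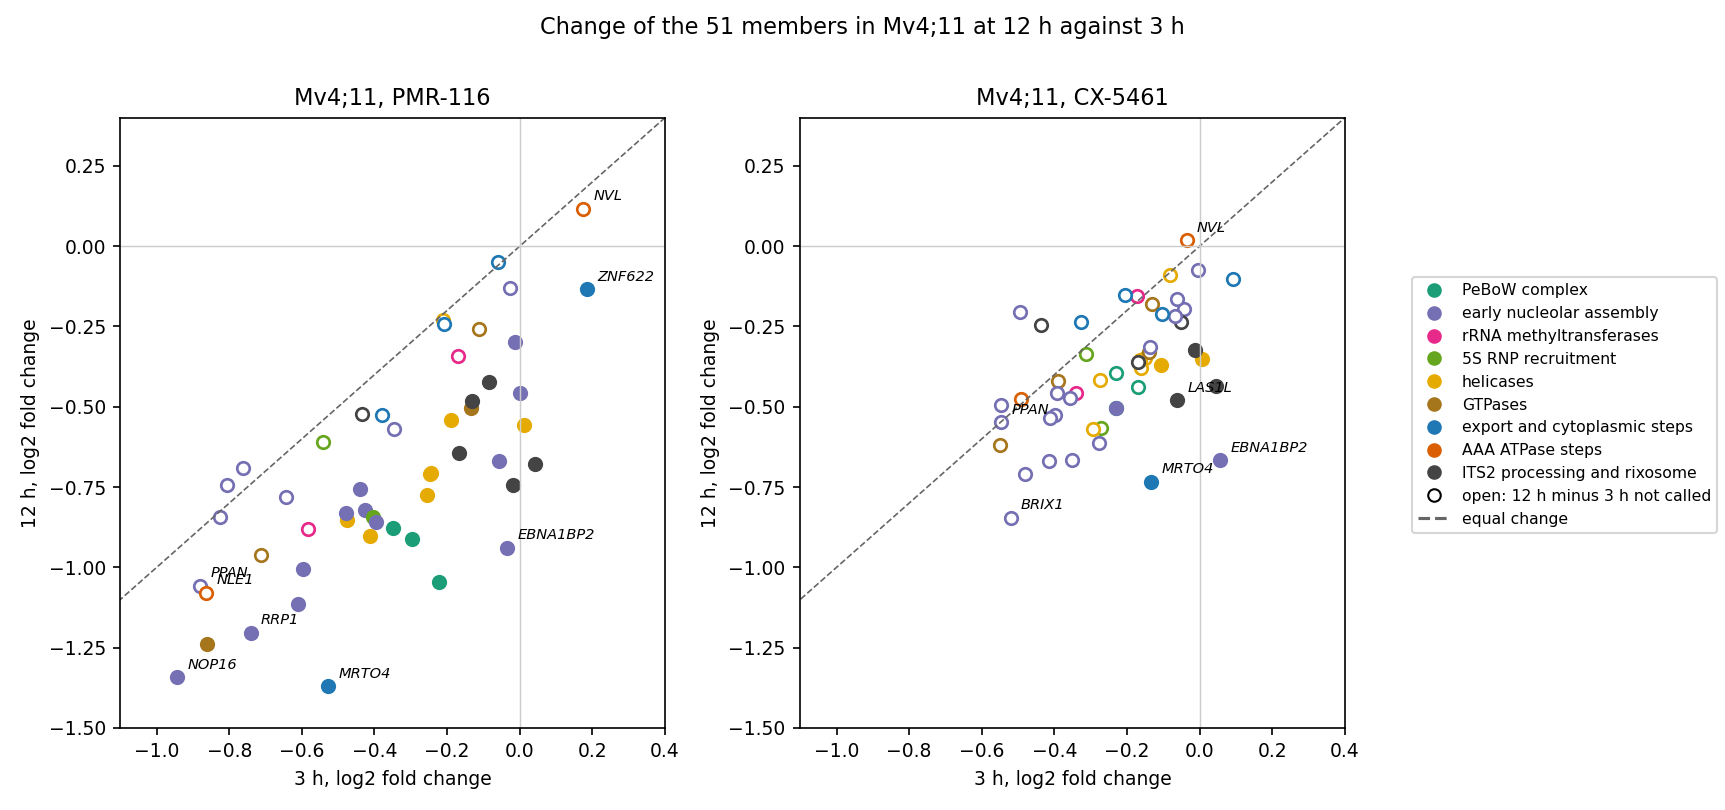
Each point is a member in Mv4;11, with its log2 fold change at 3 h on the horizontal and at 12 h on the vertical axis, coloured by role and filled where the difference between times was called. Points below the dashed line had a lower log2 fold change at 12 h than at 3 h, and with PMR-116 EBNA1BP2, BOP1, LAS1L and MRTO4 lie farthest below it.

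PMR-116 and CX-5461 were then compared at the same dose and time as a difference of their effects, in 4 line and time pairs with p-values adjusted over all genes. At 12 h in Mv4;11 PMR-116 lowered 19 of 51 members more than CX-5461 and 0 less, beside 3.84% and 1.27% of all genes. At 3 h 1 member differed, PPAN, beside 0.732% lower and 0.610% higher over all genes. The differences at 12 h were largest for MRTO4 (-0.64 ± 0.11, adjusted p = 0.00142), NOP16 (-0.63 ± 0.13, adjusted p = 0.00385) and GNL3 (-0.62 ± 0.13, adjusted p = 0.0068). The smallest called, in 3, 5 and 15 of 17 settings, were RRP1B (-0.32 ± 0.09, adjusted p = 0.0467), PELP1 (-0.32 ± 0.09, adjusted p = 0.0325) and RSL1D1 (-0.35 ± 0.09, adjusted p = 0.0153).

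All 3 PeBoW members were among the 19, with differences of -0.47 for PES1, -0.54 for BOP1 and -0.48 for WDR12. Others did not pass the test: the difference was -0.27 for BRIX1 and -0.29 for NMD3, with 95% intervals of -0.51 to -0.02 and -0.53 to -0.05. Both intervals lie below 0 before adjustment over all genes. PPAN at 3 h differed by -0.33 ± 0.08 (adjusted p = 0.0428), and this call held in 7 of 17 settings. It was lost without any of 9 of the 12 libraries, and 3 members differed without replicate 1 of PMR-116. Leaving out a single library lowered the 12 h count to 9 to 12 in 6 of 12 cases: replicate 1 of CX-5461, replicates 2 and 3 of PMR-116, replicates 1 and 2 of the PMR-116 vehicle and replicate 3 of the CX-5461 vehicle. It was 20 with the RN7SL2-rich vehicle library left out, and 10 with library totals.

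**Figure D5:**
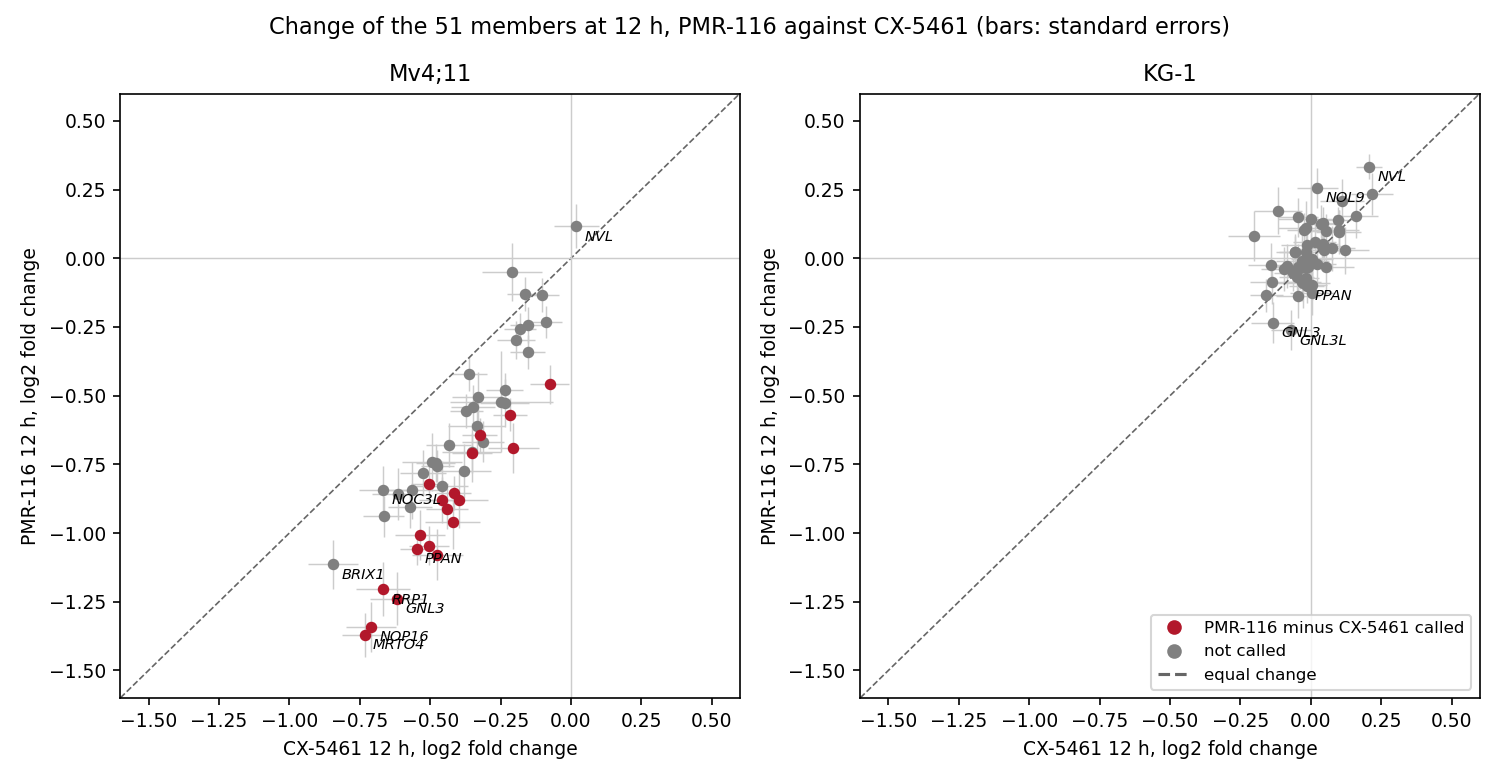
Each point is a member at 12 h, with its log2 fold change under CX-5461 on the horizontal and under PMR-116 on the vertical axis, bars for standard errors, Mv4;11 left and KG-1 right. In Mv4;11 48 of 51 points lie below the dashed line of equal change and 19 are called, while in KG-1 the points gather around 0 and 0 are called.

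In KG-1 few members passed the test in the fit that did not use replicate number. With PMR-116 1 was lower and 2 higher at 3 h, beside 3.71% and 3.61% of all genes, and 2 were lower and 3 higher at 12 h, beside 4.74% and 4.73%. With CX-5461 1 was lower and 0 higher at 3 h, beside 1.58% and 1.85%, and 0 were lower and 1 higher at 12 h, beside 1.18% and 1.36%. The members' medians were 0.05 with PMR-116 and 0.03 with CX-5461 at 3 h, and 0.02 and -0.02 at 12 h. Where edgeR called 0, DESeq2 called 1 higher with CX-5461 at 3 h (URB2) and 0 lower with CX-5461 at 12 h, and 6 members had an unadjusted p under 0.05 in either direction at each of these times.

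In KG-1 same-numbered libraries were taken as pairs from their correlations, which the labels do not state. With replicate number as a block more members were called, as were more of all genes. KG-1 values are from the fit without the block except where it is named. With PMR-116 5 were then lower and 6 higher at 3 h, and 3 lower and 7 higher at 12 h. With CX-5461 1 was lower and 3 higher at 3 h, and 0 lower and 3 higher at 12 h. Of all 18618 tested genes, the block called 2599 with PMR-116 at 3 h and 3198 at 12 h, in either direction. With CX-5461 it called 1733 at 3 h and 1313 at 12 h. Newly called among the named genes were GNL3 (-0.20 ± 0.05, adjusted p = 0.0100), RRS1 (0.18 ± 0.05, adjusted p = 0.00946) and ZNF622 (0.24 ± 0.05, adjusted p = 0.00225) with PMR-116 at 3 h, and ZNF622 with CX-5461 at 3 h (0.20 ± 0.05, adjusted p = 0.0150). At 12 h with PMR-116 PES1 (-0.14 ± 0.04, adjusted p = 0.0206) and RRS1 (0.14 ± 0.05, adjusted p = 0.0312) were added.

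PPAN was the member that fell in KG-1 at 3 h. It had 105, 86.2, 85.2 and 91.9 CPM with PMR-116, against 141, 125, 127 and 131 CPM with vehicle (log2 fold change -0.51 ± 0.06, adjusted p = 1.97e-06). With CX-5461 it had 108, 99.1, 106 and 104 CPM, against 139.97, 121, 127 and 123 CPM with vehicle (-0.29 ± 0.06, adjusted p = 0.0052). The groups did not overlap at 3 h. At 12 h they did, at -0.10 with PMR-116 and -0.02 with CX-5461, neither called, and the PMR-116 effect differed between the times by 0.41 ± 0.09 (adjusted p = 0.0103).

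NVL rose in KG-1 at 12 h with both compounds. It had 73.8, 72.6, 76.6 and 78.6 CPM with PMR-116, against 61.5, 59.3, 60.9 and 57.7 CPM with vehicle (log2 fold change 0.33 ± 0.05, adjusted p = 1.24e-05). With CX-5461 it had 71.8, 70.6, 68.5 and 71.6 CPM, against 62.8, 58.6, 61.5 and 61.8 CPM with vehicle (0.21 ± 0.05, adjusted p = 0.00902). Every treated library lay above every vehicle library. The effect at 12 h exceeded that at 3 h by 0.31 ± 0.06 with PMR-116 (adjusted p = 0.00811) and by 0.32 ± 0.06 with CX-5461 (adjusted p = 0.0201). The CX-5461 call held in 14 of 21 settings, and 6 of 16 left-out libraries ended it.

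The other KG-1 calls were smaller or less stable. With PMR-116 at 12 h GNL3 had 225, 198, 180.3 and 199 CPM, against 261, 241, 218 and 223 CPM with vehicle, with overlapping groups (-0.23 ± 0.08, adjusted p = 0.0462, called in 7 of 15 settings). GNL3L was lower, at -0.26, and NOL9 (0.26) and SENP3 (0.23), both of ITS2 processing, were higher, called in 11, 9 and 6 of 15 settings. With PMR-116 at 3 h the higher members were the helicase DDX31 (0.18, called in 6 of 15 settings) and the early factor URB2 (0.24, called in 12 of 15). Leaving out single libraries gave 0 to 4 members higher there: 4 without replicate 1 of the vehicle, 0 without replicate 1 of PMR-116 or replicate 2 of the vehicle, and 1 without replicate 3 or 4 of either. At 12 h it gave 0 to 2 lower and 1 to 4 higher: 0 lower without replicate 1 of the vehicle or replicate 3 or 4 of PMR-116, 1 lower without replicate 2 of either or replicate 4 of the vehicle, and 1 higher without replicate 1 of PMR-116 or replicate 2 or 4 of the vehicle. With CX-5461 at 3 h 1 was higher without replicate 1 of the vehicle. Between times 0 members were lower and 2 higher with PMR-116 (PPAN and NVL), beside 0.768% and 0.918% of all genes, and 0 lower and 1 higher with CX-5461 (NVL), beside 0.118% and 0.145%. Without vehicle replicate 1, or PMR-116 replicate 2, of 3 h, 1 member was lower between times with PMR-116. With the block these counts were 3 lower and 3 higher with PMR-116, and 0 lower and 2 higher with CX-5461. Over all 18618 genes the block called 1235 and 402 between times, in either direction.

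PMR-116 and CX-5461 did not differ in any member in KG-1 by edgeR or by DESeq2, with 2 and 3 members at an unadjusted p under 0.05 at 3 h and 12 h. Over all genes 0.0107% were lower and 0% higher at 3 h, and 0.0269% lower and 0.0215% higher at 12 h. The 95% interval of the PMR-116 minus CX-5461 difference was -0.39 to -0.05 for PPAN at 3 h and 0.00 to 0.25 for NVL at 12 h. For NOP16 at 12 h it was -0.32 to 0.20.

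The effects were compared between lines in a joint fit without the replicate block. With PMR-116 at 12 h 44 of 51 members had a lower effect in Mv4;11 than in KG-1 and 0 a higher one, beside 13.2% and 12.1% of all genes. With CX-5461 at 12 h 31 were lower and 0 higher, beside 9.04% and 7.18%. At 3 h 22 were lower with PMR-116, beside 3.19% and 3.75% of all genes lower and higher, and 4 with CX-5461, beside 1.50% and 1.57%, with 0 higher for both. MRTO4 (-1.30 ± 0.14, adjusted p = 1.04e-10), BRIX1 (-1.23 ± 0.13, adjusted p = 2.42e-10) and NOP16 (-1.19 ± 0.14, adjusted p = 2.71e-09) differed most with PMR-116 at 12 h. With PMR-116 at 3 h NOP16 (-0.93), SURF6 (-0.78) and NOC3L (-0.72) led, and with CX-5461 at 12 h RRP1 (-0.71), BRIX1 (-0.70) and MRTO4 (-0.67).

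The 4 members with CX-5461 at 3 h were SURF6 (-0.61), URB2 (-0.57), NOP16 (-0.54) and WDR74 (-0.40), all early nucleolar factors. That count was 14 with the replicate block, 8 with DESeq2 size factors and 7 with library totals, and 7 or 8 without replicate 2 of CX-5461 or replicate 3 of its vehicle in Mv4;11, or without replicate 3 of CX-5461 or replicate 4 of its vehicle in KG-1. PPAN, lower at 3 h in both lines, still differed with PMR-116, by -0.32 ± 0.09 (adjusted p = 0.0187). With library totals the median of all genes moved by 0.10 with PMR-116 at 12 h, and 42 members were lower. Leaving out the RN7SL2-rich library, 45 were.

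MYC, the 1 gene outside the list followed here, encodes a transcription factor that drives ribosome production. In Mv4;11 it had 145, 106 and 108 CPM with PMR-116 at 3 h, against 493, 478 and 492 CPM with vehicle (log2 fold change -2.03 ± 0.09, adjusted p = 5.18e-13). At 12 h it had 251, 211 and 218 CPM with PMR-116, against 499, 544 and 473 CPM with vehicle (-1.16 ± 0.09, adjusted p = 2.81e-10). With CX-5461 MYC was lower, at -1.52 at 3 h and -0.56 at 12 h. So MYC was lowest at 3 h, while the members' median was lowest at 12 h. The MYC effect was higher at 12 h than at 3 h by 0.87 ± 0.13 with PMR-116 and by 0.96 ± 0.13 with CX-5461. In the reported edgeR fit 32 of 51 members had a lower effect at 12 h with PMR-116, and 8 with CX-5461. With each compound 0 members had a higher one, and the rest had no called difference between the times. In KG-1 MYC had 884, 888, 759 and 780.2 CPM with PMR-116 at 3 h, against 1040, 1010, 1008 and 1030 CPM with vehicle (-0.30 ± 0.09, adjusted p = 0.0429, called in 7 of 15 settings). In the other 3 KG-1 comparisons MYC was not called, and with the replicate block it was called with PMR-116 at 12 h (-0.16 ± 0.06, adjusted p = 0.0472). The part of MYC in the members' change was not tested.

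The E-box letters CACGTG, the motif MYC is known to bind, were searched in the 250 bases before the start of each member in RefSeq promoters (GRCh38.p14), on both strands at once because the motif is its own reverse complement. Promoters were matched for 43 of 51 members, the others being BOP1, DDX18, MAK16, RPF2, RRP1B, RRS1, RSL1D1 and URB2. Of the 43, 7 held the motif (16.3%), against 6.34% of all 35116 promoters of the same length and 7.37% of the 22199 protein-coding ones. Only the first promoter listed for a member was searched, while the compared shares counted every promoter, so the units differ. The 7 sites are shown because they are the whole set of matches in the members' promoters searched, each as 30 bases with the motif in capitals.
EBNA1BP2, chr1:43172790-43172819, minus strand: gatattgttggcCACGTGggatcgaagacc
DDX31, chr9:132669988-132670017, minus strand: cctcgcgcgtccCACGTGgggtcccgggcc
DDX54, chr12:113185522-113185551, minus strand: ctcagcggaggtCACGTGgtcaccgcacct
SURF6, chr9:133336395-133336424, minus strand: ggagcacaggaaCACGTGcgggaccggggt
PELP1, chr17:4704358-4704387, minus strand: gtccggacCACGTGtacctttaacatcaca
TEX10, chr9:100352955-100352984, minus strand: gcgggctgcgatCACGTGagcacagcaggg
SDAD1, chr4:75991156-75991185, minus strand: tacatgctaacaCACGTGaaaaaatttaca

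The matches began 22 to 242 bases before the start, nearest in DDX31. In Mv4;11 with PMR-116 at 12 h the 7 members with a match had a median log2 fold change of -0.69 and the 36 without one -0.73, and at 3 h the medians were -0.21 and -0.32. The members with the largest falls, MRTO4, NOP16 and GNL3, were among the 36 without a match in this window. Sequence after the start was not searched, and the promoters compared were not matched for base composition. A match is a run of letters and not a measured binding site.

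Other genes of ribosome production were counted beside the members, from lists chosen with earlier results of these data known. In Mv4;11 at 12 h with PMR-116, 55 of 57 factors of the small subunit were lower (median -0.62), as were 19 of 23 further large subunit factors (-0.73) and 7 of 8 subunits of RNA polymerase I (-0.82), beside 22.5% of all tested genes. With CX-5461 at 12 h the counts were 47, 16 and 6, beside 16.5% of all genes. At 3 h they were 35, 14 and 6 with PMR-116, beside 13.1%, and 25, 8 and 5 with CX-5461, beside 6.61%. Of the 60S ribosomal proteins, the structural partners of the assembly factors, 0 of 47 were called at 3 h with either compound by edgeR, with 1 and 5 at an unadjusted p under 0.05. At 12 h 19 were lower with PMR-116 (median -0.14), beside 22.5% of all genes. With CX-5461 8 of 47 were lower (-0.09), a share near the 16.5% of all genes. In KG-1 with PMR-116 at 12 h 17 of the 47 ribosomal proteins were lower (median -0.14), beside 4.74% of all genes.

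The vehicles of PMR-116 and CX-5461 were compared with each other at each time in each line. By edgeR 0 of 51 members differed in any of the 4 comparisons, with 1, 0, 0 and 1 members at an unadjusted p under 0.05, and member differences ran from -0.19 to 0.18. In vehicle libraries the summed level of the members was 5888 to 6407 CPM at 3 h and 5143 to 5713 CPM at 12 h in Mv4;11, and 6271 to 7003 CPM at 3 h and 5245 to 6139 CPM at 12 h in KG-1, and the ranges of the times did not overlap in either line.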

How the data were processed

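The deposited values are estimated counts per gene from libraries of a stranded mRNA kit, per the labels' protocols. The submitters' processing notes name Salmon 1.5.2, DESeq2 and build GRCh38.p13 without their roles. No source used here gives the annotation release or the strand setting. Before testing, the deposited estimated counts were rounded to integers. A further 24 columns of the Mv4;11 table matched no sample and were not used. Genes were kept by filterByExpr (minimum count 10, minimum total 15), scaled by TMM and tested with edgeR 4.0.16 quasi-likelihood (limma 3.58.1, R 4.3.3), with all 8 groups of a line in one fit and, for differences between lines, all 16 groups in a joint fit of 23759 genes, with Benjamini-Hochberg adjustment and a threshold of 0.05. CPM use TMM library sizes, and errors are standard errors. DESeq2 1.42.0 was an alternative, beside library totals, DESeq2 size factors, no filter, only the 2 groups, pooled vehicles, the replicate block and each library left out.

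Replicates differed by more than sampling noise, with a chi-square of at least 6.32 per degree of freedom. Same-numbered libraries deviated together in KG-1, where 16 of 16 pairs had a correlation above 0.1 (0.11 to 0.50) and 14 of 16 correlated best with their own number. The numbers there were therefore taken as pairs, a property read from the data. The labels do not say what a number marks. Of the 51 members, 32 overlap another gene on either strand in the annotation used for locations. NOP2, RRS1, PPAN, SENP3, SDAD1 and WDR74 overlap a gene on their own strand, and the rest of the 32 only genes on the opposite strand. Reads could be shared on the same strand, and on the opposite strand if the counting ignored strand.

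The members and lists were chosen with earlier results of these data known. Genes given in every library were 13 members covering each role, the 3 lowest and 3 highest calls of each comparison were named, and MYC was the 1 gene outside the list.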

Additional observations from a re-analysis of the deposited data

Results flagged for a closer look

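Among 112 groups of 4 KG-1 libraries, over 14 genes, 2 held a library far from the other 3, where chance flags about 1 group in 20. RRS1 was at 187.9 CPM in replicate 1 of the CX-5461 vehicle at 3 h, against 148 to 150 CPM in the others. ZNF622 was at 52.35 CPM in replicate 1 of PMR-116 at 3 h, against 45.01 to 46.22 CPM in the others.

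Effects differed by the test of the difference itself in 10 comparisons. Between PMR-116 and CX-5461 in Mv4;11 this held for 1 member at 3 h and 19 at 12 h. Between 12 h and 3 h it held for 32 members with PMR-116 and 8 with CX-5461 in Mv4;11, and for 2 and 1 in KG-1. Between Mv4;11 and KG-1 it held for 22 members with PMR-116 and 4 with CX-5461 at 3 h, and for 44 and 31 at 12 h.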

How the results depend on the processing

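Of the named genes, none that was called as reported or under an alternative changed sign between the reported value and that alternative. Values without a call as reported or in that alternative did in both lines. Among them ZNF622 with PMR-116 at 12 h in Mv4;11 ranged from -0.19 to 0.04, with a lower call in 3 of 13 settings. LAS1L with PMR-116 at 3 h in Mv4;11 ranged from -0.07 to 0.04. The members' median with CX-5461 at 3 h in KG-1 was -0.00 with library totals and 0.03 as reported. Of the medians 306 moved by less than the spread between replicates (1 SD) and 30 by more. Of the values for single genes 2372 kept their side of the threshold, 221 lost a call and 27 gained one. Of the counts 358 stayed within 1.5 times the value reported and 93 did not, and the cause was not tested. With library totals, members higher with PMR-116 at 3 h in Mv4;11 numbered 2, members lower for PMR-116 minus CX-5461 at 12 h numbered 10 and for 12 h minus 3 h with PMR-116 20. In KG-1 3 were lower with PMR-116 and 1 higher with CX-5461 at 3 h, and 7 differed between lines with CX-5461 at 3 h. With no filter the counts were 0 higher with PMR-116 at 3 h, 4 between compounds at 3 h and 5 between times with CX-5461 in Mv4;11, and in KG-1 1 higher with PMR-116 at 3 h, 1 lower at 12 h, 1 between times with PMR-116 and 0 with CX-5461. DESeq2 size factors gave 1 higher with CX-5461 at 3 h in KG-1 and 8 between lines, and the DESeq2 Wald test gave 5 between compounds at 3 h and 14 between times with CX-5461 in Mv4;11, and 1 higher with CX-5461 at 3 h and 1 lower between times with PMR-116 in KG-1. With only the 2 groups 0 were higher with PMR-116 at 3 h in Mv4;11, and in KG-1 2 were lower and 0 higher at 3 h, 0 lower and 1 higher at 12 h with PMR-116, and 0 higher with CX-5461 at 12 h. Pooled vehicles gave 3 lower with PMR-116 and 1 higher with CX-5461 at 3 h, and 2 higher with CX-5461 at 12 h, in KG-1.

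With the replicate block 3 members differed between compounds at 3 h in Mv4;11, where 7 of 12 same-numbered pairs had a correlation above 0.1 (0.02 to 0.26) and 11 of 12 correlated best with their own number. Since not every pair was above 0.1 the numbers were not taken as pairs there, and the second count is a hint from the data, not from the design. In KG-1 the block gave 5 lower and 6 higher with PMR-116 at 3 h, 3 higher with CX-5461 at 3 h, 7 higher with PMR-116 and 3 with CX-5461 at 12 h, and between times 3 lower with PMR-116 and 2 higher with CX-5461. The block also called more of all genes in each of these KG-1 comparisons. Between lines with CX-5461 at 3 h it gave 14. It moved no other count by over 1.5 times.

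Leaving out each library in turn gave these ranges of members lower. In Mv4;11 they were 27 to 30 with PMR-116 and 13 to 20 with CX-5461 at 3 h, 46 to 48 and 36 to 44 at 12 h, 0 to 3 and 9 to 20 for PMR-116 minus CX-5461 at 3 h and 12 h, and 23 to 35 with PMR-116 and 5 to 15 with CX-5461 between times. Between lines they were 21 to 27 with PMR-116 and 4 to 8 with CX-5461 at 3 h, and 44 to 48 and 25 to 46 at 12 h. In KG-1 0 to 2 were lower and 1 to 4 higher with PMR-116 at 12 h, 0 to 4 higher with PMR-116 and 0 to 1 with CX-5461 at 3 h, and between times 0 to 1 lower with PMR-116 and 0 to 1 higher with CX-5461. In Mv4;11 0 to 2 were higher with PMR-116 at 3 h.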
